A study of Mus musculus with 6 samples.

Results

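The transcripts of 8 genes that detect double-stranded or single-stranded RNA, or relay its detection, were examined in whole brain of mice whose ADAR1 cannot edit RNA. The genes were *Ifih1*, *Ddx58*, *Dhx58*, *Mavs*, *Eif2ak2*, *Tlr3*, *Tlr7* and *Trim25*, taken by symbol from a table of 37310 genes, and all 8 were found. RNA sequencing had been performed on ribosome-depleted RNA from 12-week-old C57BL/6 males, with 3 libraries of *Adar1* E861A/E861A *Ifih1*-/- brain and 3 of *Adar1*+/+ *Ifih1*-/- brain, each described as an independent biological replicate. Both genotypes were homozygous for a germline disruption of *Ifih1*, which encodes MDA5, so every value below was measured without functional MDA5, and no brain with intact *Ifih1* was included. The E861A allele is a germline point mutation that abolishes the deaminase activity of ADAR1 in every cell that makes it. It leaves the protein in place. The 2 genotypes are called *Adar1* E861A and *Adar1* WT below.

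Cells recognize foreign or misplaced RNA through several families of receptors. RIG-I (*Ddx58*), MDA5 (*Ifih1*) and LGP2 (*Dhx58*) are related helicases of the cytosol; RIG-I and MDA5 carry caspase recruitment domains that engage MAVS on the mitochondrial surface, whereas LGP2 lacks these domains and modulates the others. TRIM25 is a ubiquitin ligase described as a cofactor of RIG-I. PKR (*Eif2ak2*) binds double-stranded RNA and phosphorylates the translation factor eIF2, TLR3 detects double-stranded RNA in endosomes and TLR7 detects single-stranded RNA there. Many of these genes are themselves induced by interferon. Inosine made by ADAR1 weakens the pairing of endogenous RNA duplexes, and MDA5 is the sensor best known to respond when this editing is lost. Comparison of the genotypes shows how the remaining sensors are expressed when both editing by ADAR1 and MDA5 are missing.

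*Adar1* E861A libraries held 26853488 to 36285305 counts and *Adar1* WT libraries 35702138 to 38076753. CPM are counts of a gene scaled by the total counts of its library. One library stood apart: the summed level of pituitary hormone genes was 439 CPM in *Adar1* E861A replicate 1 and 1.30 to 3.31 CPM in the other 5 libraries. Summed markers of microglia were 247 to 263 CPM in *Adar1* E861A and 256 to 265 CPM in *Adar1* WT, and 0 of 15 were called. Astrocyte markers summed to 5744 to 6027 CPM against 5121 to 5403 CPM (0 of 10 called), but most of this sum was 1 gene, *Slc1a2* (4165 against 3630 CPM, also named after its values were seen), and the median log2 fold change of the 10 was 0.016. Markers of endothelium and mural cells summed to 183 to 216 CPM against 229 to 286 CPM, without overlap. Of the 9 tested, 0 had a positive log2 fold change (median -0.32) and 0 were called. An unadjusted p under 0.05 was found for 6 of the 9, against 9.01% of all tested genes. *Flt1* and *Rgs5*, named after their values were seen, were called lower when edgeR's filterByExpr chose the genes tested. Choroid plexus markers summed to 228 to 339 CPM against 396 to 417 CPM, also without overlap (0 of 7 called). Of these 7, 1 had a positive log2 fold change (median -0.205), and 2 were tested only because of their level in *Adar1* WT. Neuron markers summed to 7306 to 7562 CPM against 7431 to 7629 CPM (0 of 10 called). Oligodendrocyte markers summed to 4679 to 4969 CPM against 4571 to 5014 CPM (0 of 10 called). Markers of blood and lymphocytes summed to 26.3 to 33.3 CPM against 27.9 to 41.5 CPM (0 of 3 called). Only these 3 of the 9 matched blood and lymphocyte markers reached the filter, so most of that list was not tested. No matched marker of these lists was at 0 in every library. The part of these differences in the results below was not tested, and in whole tissue fewer cells of a type cannot be told apart from less RNA per cell.

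*Ddx58* was the one sensor transcript called different between the genotypes. It increased 1.63-fold in *Adar1* E861A brain, while the transcripts of its adaptor *Mavs* and of the endosomal receptors *Tlr3* and *Tlr7* stayed within 0.11 of 0 on the log2 scale. *Eif2ak2* and *Trim25* differed by 0.36 and 0.33 on that scale without passing the test. *Dhx58* and *Ifih1* were also higher in each *Adar1* E861A library than in any *Adar1* WT library, but their counts were too low for the expression filter of the main test.

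**Figure D1:**
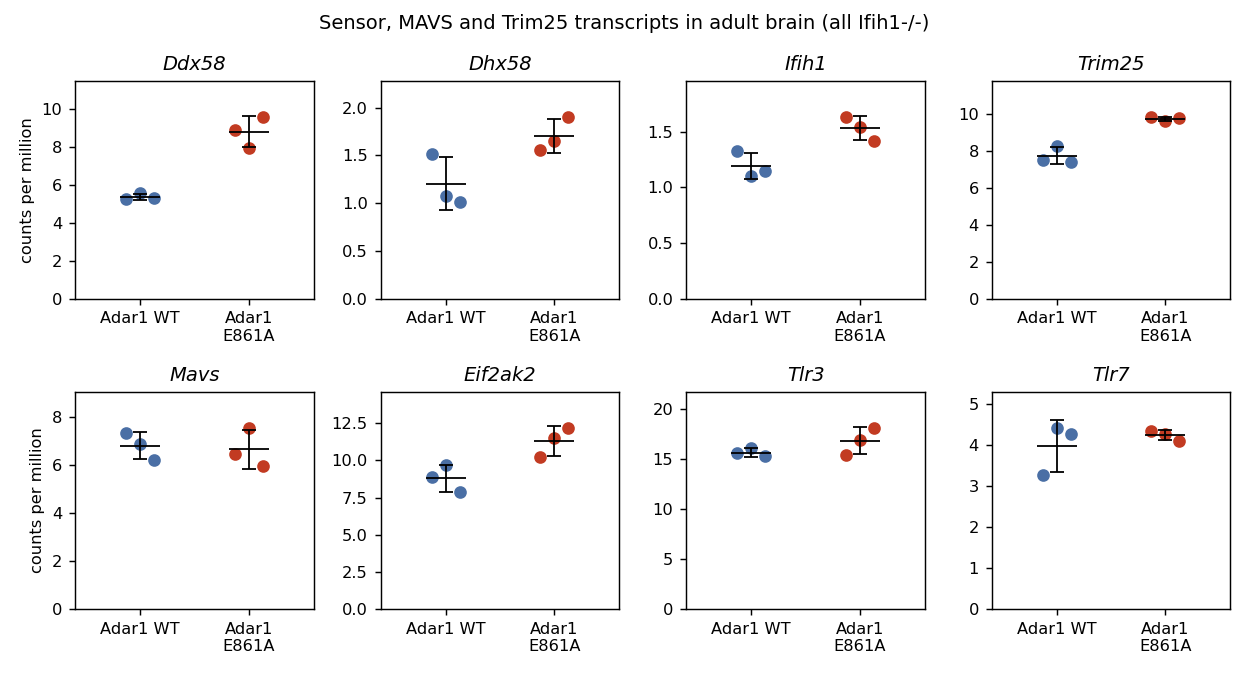
CPM of each of the 8 transcripts (vertical axes, each from 0) in the 3 libraries of each genotype. Points are replicates 1 to 3 from left to right and the line with its bar is the mean ± SD; the genotypes are separate for *Ddx58*, *Dhx58*, *Ifih1*, *Trim25* and *Eif2ak2* and overlap for *Mavs*, *Tlr3* and *Tlr7*.

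*Ddx58* (ENSMUSG00000040296; NCBIM37 chromosome 4, 40150806 to 40186861, minus strand) encodes RIG-I, which binds short duplexes with a triphosphate end. In *Adar1* E861A replicates 1 to 3 its counts were 257, 288 and 257, which is 8.90, 7.94 and 9.57 CPM. *Adar1* WT replicates 1 to 3 had 190, 212 and 190 counts, or 5.25, 5.57 and 5.32 CPM. The lowest *Adar1* E861A library was therefore well above the highest *Adar1* WT library, and the *Adar1* E861A libraries were the more spread, at 8.80 ± 0.82 CPM (SD, n = 3) against 5.38 ± 0.17 CPM. The log2 fold change was 0.71 ± 0.10 (SE; 95% interval 0.48 to 0.93) with an adjusted p of 0.00307 by edgeR's quasi-likelihood test. Of 13649 genes tested, 0.506% were called in either direction and 0.41% were called higher, and *Ddx58* ranked 38 by p-value. It was the 1 of the 6 tested members that was called. Leaving out *Adar1* E861A replicate 3 gave the highest adjusted p, 0.0462, at a log2 fold change of 0.64. Leaving out *Adar1* E861A replicate 1, the library with pituitary transcripts, gave 0.71 with an adjusted p of 0.0129. A fit that blocked on the replicate number called 158 genes rather than 69, and *Ddx58* was again the 1 called member.

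The region before the start of *Ddx58* is shown because this was the called member. That of *Tlr3* is shown because it held the same motif and was not called. RefSeq promoters (GRCm38.p6, a different build from that of the counts) were found for 6 of the 8 genes; *Dhx58* and *Tlr7* had no entry. The 250 bases before each start were searched on both strands for the interferon-stimulated response element core GAAANNGAAA, present in 2.98% of 32851 promoters, and for the interferon regulatory factor core AANNGAAA, present in 21.3%. Every match to the first motif also contains the second. The second was added after the *Ddx58* sequence had been seen. Of the 6 genes, 0 had the first motif and 2, *Ddx58* and *Tlr3*, had the second. A match is a description of letters only. Capitals mark the matches, and each sequence runs 5′ to 3′ on the strand of its gene and ends at the base before the start.
Ddx58, chr4:40239826-40240075, minus strand: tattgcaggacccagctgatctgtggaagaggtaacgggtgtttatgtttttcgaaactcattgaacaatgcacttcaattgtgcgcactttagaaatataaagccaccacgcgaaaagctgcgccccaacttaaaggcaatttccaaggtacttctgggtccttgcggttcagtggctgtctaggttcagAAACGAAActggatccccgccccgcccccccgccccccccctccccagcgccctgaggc
Tlr3, chr8:45410381-45410630, minus strand: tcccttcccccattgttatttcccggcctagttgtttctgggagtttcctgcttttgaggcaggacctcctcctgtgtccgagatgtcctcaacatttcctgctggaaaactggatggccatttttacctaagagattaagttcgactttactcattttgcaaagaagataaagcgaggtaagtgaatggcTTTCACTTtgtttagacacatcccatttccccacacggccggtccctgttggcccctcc
The *Ddx58* match lay 59 to 52 bases before the start on the strand of the gene, and the *Tlr3* match lay at the same distance on the opposite strand. *Ifih1*, *Mavs*, *Trim25* and *Eif2ak2* held neither motif in this window.

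*Dhx58* (ENSMUSG00000017830; chromosome 11, 100556018 to 100565585, minus strand) encodes LGP2, which has the helicase and RNA-binding regions of the family. Its counts were 45, 60 and 51 in *Adar1* E861A (1.56, 1.65 and 1.90 CPM) and 55, 41 and 36 in *Adar1* WT (1.52, 1.08 and 1.01 CPM). The genotypes did not overlap in CPM, though *Adar1* WT replicate 1 came close to *Adar1* E861A replicate 1. *Dhx58* failed the filter of 2 CPM and was read from a fit of the 19366 genes kept by edgeR's filterByExpr. Its log2 fold change there was 0.50 ± 0.21 (95% interval 0.06 to 0.93), with an unadjusted p of 0.0276 and an adjusted p of 0.537. The antisense gene *Dhx58os* shares exon sequence with it and had counts of 17, 8 and 17 in *Adar1* E861A against 23, 19 and 19 in *Adar1* WT. The strand used in counting was not stated, so reads of this pair could have been exchanged.

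*Ifih1* (ENSMUSG00000026896; chromosome 2, 62433850 to 62484312, minus strand), the disrupted gene, had the least transcript per length of the 8. Its counts were 47, 56 and 38 in *Adar1* E861A against 48, 42 and 41 in *Adar1* WT. In CPM these were 1.63, 1.54 and 1.42 against 1.33, 1.10 and 1.15, so that the genotypes did not overlap. *Adar1* E861A replicate 3 came close to *Adar1* WT replicate 1, however, and the raw counts of the genotypes overlapped. With filterByExpr the log2 fold change was 0.36 ± 0.19 (95% interval -0.05 to 0.76), with an adjusted p of 0.665. Whether these reads came from exons left by the disruption cannot be seen in counts per gene, and with no intact *Ifih1* for comparison they did not test the genotype. In that fit 0.568% of genes were called, and neither *Dhx58* nor *Ifih1* was among them. At an unadjusted p under 0.05, 1 of these 2 passed with higher counts in *Adar1* E861A (*Dhx58*), as did 4.25% of the genes of that fit, and DESeq2, limma-voom and edgeR's likelihood ratio test called 0 of them.

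*Trim25* (ENSMUSG00000000275; chromosome 11, 88860690 to 88881607, plus strand) was present at 9.80, 9.59 and 9.76 CPM in *Adar1* E861A libraries. In *Adar1* WT it was at 7.52, 8.25 and 7.39 CPM. The *Adar1* E861A libraries were close together, with an SD of 0.11 CPM (n = 3), and all lay above *Adar1* WT. The log2 fold change was 0.33 ± 0.09 (95% interval 0.14 to 0.52), and the adjusted p of 0.211 did not pass. *Eif2ak2* (ENSMUSG00000024079; chromosome 17, 79251904 to 79281913, minus strand) was at 10.2, 11.5 and 12.2 CPM in *Adar1* E861A and 8.87, 9.69 and 7.87 CPM in *Adar1* WT. The genotypes did not overlap here either, but *Adar1* E861A replicate 1 was near *Adar1* WT replicate 2. Its log2 fold change was 0.36 ± 0.10 (95% interval 0.14 to 0.58) with an adjusted p of 0.264. Among the 15 alternatives its adjusted p ran from 0.0191, with no count filter, to 0.876, and only the former passed. An antisense gene without a symbol (ENSMUSG00000085149) shares exon sequence with *Eif2ak2*. Its counts were 1, 4 and 9 in *Adar1* E861A against 6, 11 and 3 in *Adar1* WT. Reads of this pair too could have been exchanged. An unadjusted p under 0.05 with higher counts in *Adar1* E861A was found for *Ddx58*, *Trim25* and *Eif2ak2*, 3 of the 6 tested members, against 4.78% of all tested genes.

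*Mavs* (ENSMUSG00000037523; chromosome 2, 131059799 to 131073761, plus strand), the adaptor through which RIG-I and MDA5 signal, was at 6.44, 7.52 and 5.96 CPM in *Adar1* E861A and 7.30, 6.85 and 6.19 CPM in *Adar1* WT. Its genotypes overlapped throughout. The log2 fold change was -0.02 ± 0.11 (95% interval -0.26 to 0.22; adjusted p 0.976), so changes outside that interval were not supported at this depth. *Tlr3* (ENSMUSG00000031639; chromosome 8, 46481019 to 46495962, minus strand) was at 15.4, 16.9 and 18.1 CPM in *Adar1* E861A and 15.6, 16.1 and 15.3 CPM in *Adar1* WT. *Adar1* E861A replicate 1 lay inside the *Adar1* WT range and the other two above it. The log2 fold change was 0.11 ± 0.08 (95% interval -0.06 to 0.27; adjusted p 0.718). *Tlr7* (ENSMUSG00000044583; chromosome X, 163742861 to 163768490, minus strand), which in brain is known mainly from microglia, was at 4.33, 4.27 and 4.10 CPM against 3.26, 4.41 and 4.26 CPM. *Adar1* WT replicate 1 alone was low. The log2 fold change was 0.09 ± 0.14 (95% interval -0.20 to 0.38; adjusted p 0.875) and became -0.04 without that library.

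**Figure D2:**
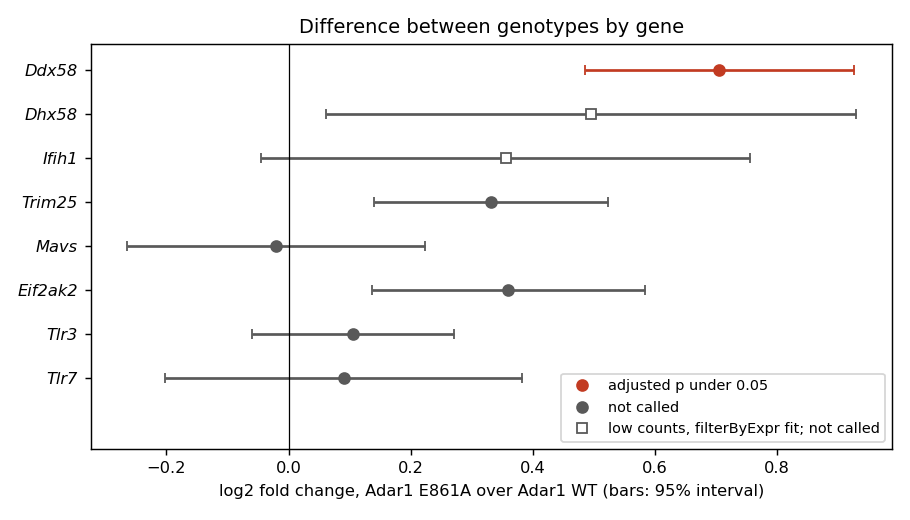
Log2 fold change of each transcript in *Adar1* E861A over *Adar1* WT brain (horizontal axis) with its 95% interval, from edgeR's quasi-likelihood fit of 3 against 3 libraries. Open squares are the 2 low-count genes from the filterByExpr fit, and *Ddx58*, at 0.71, is the one called gene.

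In all, 5 of the 8 transcripts were higher in each *Adar1* E861A library than in any *Adar1* WT library, and 0 were lower in each. Over the 19366 genes of the wider fit, 7.25% were higher in this way. Exact two-sided permutation tests of 3 against 3 libraries gave p = 0.1 for these 5 genes (*Ddx58*, *Dhx58*, *Ifih1*, *Trim25* and *Eif2ak2*), the smallest p the design allows. They gave 0.8 for *Mavs*, 0.3 for *Tlr3* and 0.8 for *Tlr7*. Without *Adar1* E861A replicate 1, 6 of the 8 were higher in this way, *Tlr3* being added. Such separation is easier to reach with a library fewer. The share over all genes was not computed for that comparison, so this count is a description.

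Ratios of counts within a library do not depend on its depth. Those of *Ddx58*, taken because it was the called member, describe its counts beside the other members and are no further test. The ratio of *Ddx58* to *Mavs* counts was 1.38, 1.05 and 1.61 in *Adar1* E861A libraries and 0.72, 0.81 and 0.86 in *Adar1* WT. *Ddx58* counts thus exceeded *Mavs* counts in 3 of 3 *Adar1* E861A libraries and in none of *Adar1* WT. Relative to *Trim25* the ratio was 0.91, 0.83 and 0.98 against 0.70, 0.68 and 0.72. Relative to *Eif2ak2* it was 0.87, 0.69 and 0.79 against 0.59, 0.57 and 0.68, a narrower separation. The differences of the mean log2 ratio were 0.74 for *Mavs*, 0.61 for *Tlr3*, 0.37 for *Trim25*, 0.35 for *Eif2ak2* and 0.35 for *Ifih1*, without overlap. Relative to *Dhx58* the genotypes overlapped, with a difference of 0.18.

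Levels were compared between genes as RPKM, CPM per kilobase of merged exons. In *Adar1* WT brain the order was *Tlr3* (3.56 ± 0.09 RPKM, SD, n = 3), *Mavs* (2.03 ± 0.17), *Eif2ak2* (1.72 ± 0.18), *Trim25* (1.34 ± 0.08), *Tlr7* (0.97 ± 0.15), *Ddx58* (0.76 ± 0.02), *Dhx58* (0.35 ± 0.08) and *Ifih1* (0.22 ± 0.02). *Mavs* and *Eif2ak2* overlapped across libraries, and the other neighbours in this order did not. In *Adar1* E861A brain *Eif2ak2* (2.21 ± 0.20 RPKM) stood before *Mavs* (1.99 ± 0.24), again with overlap. *Ddx58* (1.25 ± 0.12 RPKM) stood before *Tlr7* (1.04 ± 0.03), without overlap. The remaining places were as in *Adar1* WT. RIG-I transcript was therefore below *Tlr7* transcript per length in each *Adar1* WT library and above it in each *Adar1* E861A library. Across *Adar1* WT libraries the gap was narrow. The highest *Ddx58* value was 0.790 RPKM (replicate 2) and the lowest *Tlr7* value was 0.799 RPKM (replicate 1). All 8 were scarce beside *Adar* itself, which was at 23.8 ± 1.32 RPKM in *Adar1* E861A and 22.2 ± 4.4 RPKM in *Adar1* WT (log2 fold change 0.10 ± 0.11, adjusted p 0.822). A point mutation does not show in a count, so this did not test the *Adar1* labels.

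**Figure D3:**
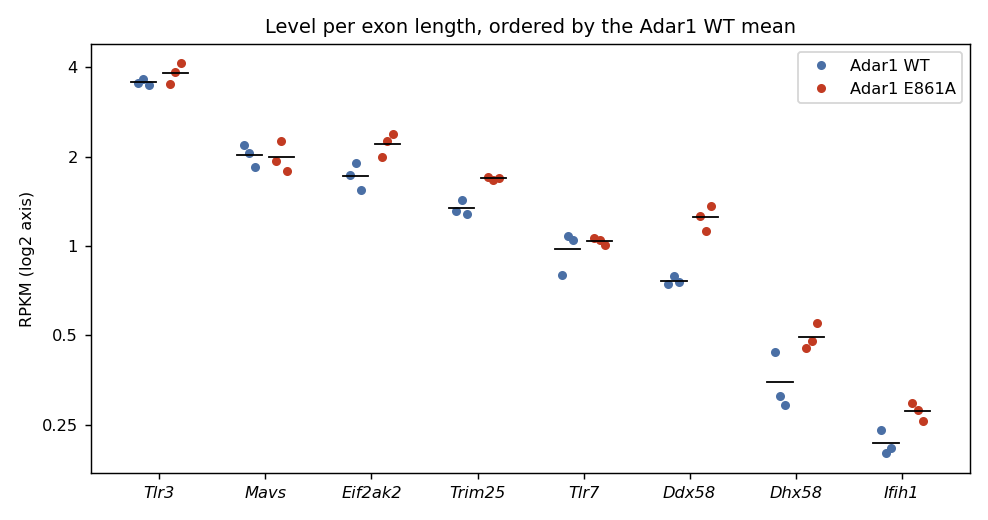
Level of each transcript in RPKM on a log2 axis, in order of the *Adar1* WT mean. Points are the 3 libraries of each genotype and lines their means; *Ddx58* moves from below *Tlr7* in *Adar1* WT to above it in *Adar1* E861A.

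Other genes of the same pathways were taken from 6 lists of cofactors, restraints, signalling proteins, Toll-like receptor partners, eIF2 kinases and helicases. Of 126 listed genes 125 were matched and 109 tested, and 4 of these were called, all higher in *Adar1* E861A. The median log2 fold change of the 109 was 0.004, against -0.001 over all tested genes, and the medians of the single lists ran from -0.019 (helicases) to 0.05 (MAVS signalling). The 4 called genes were *Ddx60*, *Nlrc5*, *Irf7* and *Ifit3*. Of these, 3 (*Ddx60*, *Nlrc5* and *Irf7*) passed the filter of 2 CPM through *Adar1* E861A alone, where they are high, so their number is a description and is not set against the share of all genes called. They were also the 4 called without *Adar1* E861A replicate 1. *Ddx60*, *Irf7* and *Ifit3* are also in the reference list of interferon-induced genes below, and *Ifit3* can share reads with close copies in its family.

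Among the 17 tested cofactors of RIG-I-like receptors, *Ddx60* was called higher and 0 were called lower. *Zc3hav1*, named after its values were seen, had a log2 fold change of 0.35 ± 0.09 (adjusted p 0.209). It was called when no count filter was used. The lowest log2 fold change of this list was -0.16. *Ddx60*, a helicase described as an aid to RIG-I, was at 3.46, 3.67 and 5.47 CPM in *Adar1* E861A and 1.38, 1.29 and 1.23 CPM in *Adar1* WT, and its log2 fold change was 1.68 ± 0.19 (adjusted p 0.000346). *Adar1* E861A replicate 3 was the highest, as it was for *Ddx58*. The zinc-finger cofactor *Zcchc3* differed by -0.04 ± 0.08 on the log2 scale (adjusted p 0.927) and *Prkra*, encoding the PKR activator PACT, by 0.05 ± 0.09 (adjusted p 0.914). *Rnf135*, the ubiquitin ligase also called Riplet, failed the CPM filter and was at 2.39, 2.78 and 1.82 CPM against 2.24, 2.34 and 1.88 CPM. Of the 21 tested restraints, 1 was called higher and 0 were called lower. This was *Nlrc5*, known chiefly as an activator of MHC class I genes, which was at 2.23 ± 0.04 CPM (SD, n = 3) against 0.71 ± 0.19 CPM, a log2 fold change of 1.65 ± 0.20 (adjusted p 0.000487).

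Among 22 tested genes of signalling from MAVS to IRF3, IRF7 and NF-kB, 2 were called higher and 0 were called lower. With the replicate block *Nfkbia*, encoding the NF-kB inhibitor IkB-alpha and named after its values were seen, was also called. It was at 11.9, 14.7 and 10.8 CPM in *Adar1* E861A and 14.8, 18.5 and 16.4 CPM in *Adar1* WT, lower in each *Adar1* E861A library than in any *Adar1* WT library. Its log2 fold change was -0.40 ± 0.11 (adjusted p 0.253) without the block and -0.41 ± 0.07 (adjusted p 0.0163) with it. *Irf7*, the interferon-inducible transcription factor, was at 2.94, 3.31 and 3.84 CPM against 1.91, 0.76 and 1.57 CPM, and its log2 fold change was 1.26 ± 0.23 (adjusted p 0.0225). *Ifit3*, described as a bridge between MAVS and TBK1 and itself interferon-induced, was at 12.0 ± 1.35 CPM (SD, n = 3) against 3.85 ± 0.64 CPM, and its log2 fold change was 1.64 ± 0.13 (adjusted p 1.27e-05). The call of *Irf7* was lost without *Adar1* E861A replicate 3 and without *Adar1* WT replicate 3. The other components named here were not called. *Tbk1*, the kinase of IRF3, differed by -0.03 ± 0.05 on the log2 scale, *Irf3* by 0.19 ± 0.09, *Traf3* by 0.16 ± 0.06 and *Ikbke* by 0.30 ± 0.15, with adjusted p of 0.864, 0.571, 0.395 and 0.574.

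No gene was called among the 16 tested partners of endosomal Toll-like receptors, the 20 tested genes of eIF2 phosphorylation or the 14 other helicases. At an unadjusted p under 0.05 the numbers were 0, 0 and 1, and the share over all tested genes was 9.01%. *Ticam1*, the adaptor of TLR3, differed by -0.18 ± 0.11 on the log2 scale (adjusted p 0.662), *Myd88*, the adaptor of TLR7, by 0.05 ± 0.16 (adjusted p 0.955) and the chaperone *Unc93b1* by 0.06 ± 0.11 (adjusted p 0.893). The other 3 eIF2 kinases had higher counts than *Eif2ak2*. They differed by -0.05 ± 0.05 (*Eif2ak1*, 95% interval -0.15 to 0.06), -0.08 ± 0.06 (*Eif2ak3*, -0.21 to 0.05) and 0.02 ± 0.07 (*Eif2ak4*, -0.13 to 0.16), and their substrate *Eif2s1* by -0.04 ± 0.05 (adjusted p 0.839). The interval of *Eif2ak2* (0.14 to 0.58) overlapped only that of *Eif2ak4*, and the difference between kinases was not tested.

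**Figure D4:**
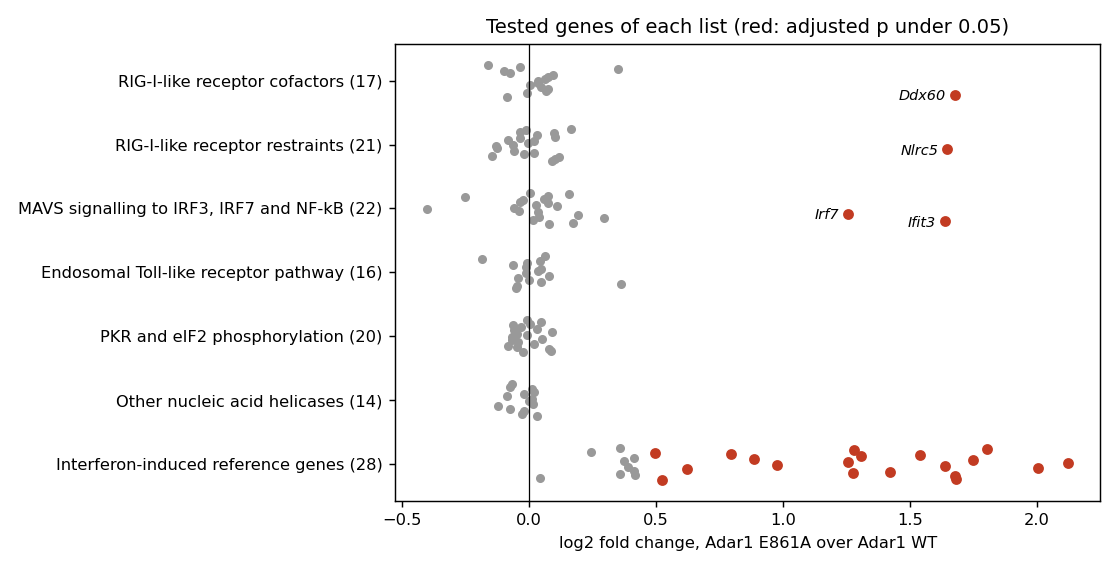
Log2 fold change in *Adar1* E861A over *Adar1* WT brain for the tested genes of each list, with the number tested in brackets; each point is a gene, red where its adjusted p was under 0.05. The pathway lists centre near 0 with 4 called genes, of which 3 passed the count filter through *Adar1* E861A alone. The 28 tested interferon-induced reference genes lie above 0, but 10 of them passed the filter in that way. All lists were written with earlier results of these data known, so the picture is a description.

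A reference list of interferon-induced genes was read beside these values. Of its 28 tested genes 19 were called, all higher, with log2 fold changes of up to 2.12. Of the 19, 10 passed the filter through *Adar1* E861A alone, so this count too is a description. Summed over the list's 39 matched genes, tested or not, the level was 310, 321 and 349 CPM in *Adar1* E861A replicates 1 to 3. In *Adar1* WT it was 213, 206 and 200 CPM. The genotypes did not overlap in this sum. *Eif2ak2* is itself in this list and was among those of its genes that were not called. The list was written with earlier results of these data known and gives no independent support.

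The 3 tested genes whose log2 CPM followed *Ddx58* most closely over the 6 libraries were *Samd9l* (Pearson r = 0.996), *Zkscan1* (r = 0.992) and *Gm4117* (r = 0.991). *Samd9l*, an interferon-induced gene, had a log2 fold change of 0.80 (adjusted p 0.000538) and *Gm4117* one of 0.98 (adjusted p 0.00139). *Zkscan1*, encoding a zinc-finger protein, differed by only 0.05 (adjusted p 0.770). With 6 libraries from 2 genotypes such coefficients describe these libraries and carry no p-value.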

How the data were processed

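Whole-brain RNA of 6 mice was ribosome-depleted, prepared with a stranded kit and sequenced as paired ends. Per the labels and the study's methods, the authors trimmed reads with Trimmomatic 0.36, aligned them to mm9 (NCBIM37) with STAR 2.5.2a and deposited raw counts per gene, which were used here. The strand column and annotation release were not given in the sources used here. Coordinates and exon lengths came from GENCODE vM1, which held all 37310 identifiers. Deposited CPM tables and the authors' table of fold changes and adjusted p-values were not used.

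Counts were analysed in edgeR 4.0.16 under R 4.3.3. The 13649 genes that reached 2 CPM in all 3 libraries of one genotype or the other were scaled by TMM (factors 0.985 to 1.02) and compared by the quasi-likelihood test, with no covariate. Benjamini-Hochberg adjustment covered every tested gene, and genes with an adjusted p under 0.05 are called. The standard error is the log2 fold change over the square root of F. Members under the filter were read from a filterByExpr fit (19366 genes). The fit was also run on counts simulated with dispersions estimated from these data. Those counts held no tissue or replicate effects, so libraries like *Adar1* E861A replicate 1 were not covered. Alternatives were DESeq2 1.42.0, limma-voom (limma 3.58.1), a likelihood ratio test, other scalings and filters, the replicate block and the omission of each library. All members are named, with called pathway genes, a fixed set of their partners and, for each called member, the 3 genes most correlated with it. The members and lists were chosen with earlier results of these data known. The motif search was added later, and a further motif searched is not reported here. No molecular identifiers were used, so counting error is a lower limit of the error.

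Replicate numbers are shared between genotypes in the labels. Deviations from the genotype means correlated with r of 0.221, 0.329 and 0.112 for libraries sharing a number. For libraries with different numbers r ran from -0.255 to 0.0523. Each value for a shared number exceeded 0.1, which met the criterion for pairing. Deviations from a mean are tied to one another, however, so these r are not independent and do not establish pairs. What a number marks was not stated, and the numbers in the library names differ between the genotypes. The main values, their intervals and the permutation tests do not use the pairing, and a fit with the replicate block is given where it changes a call or a count.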

Additional observations from a re-analysis of the deposited data

How the results depend on the processing

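Across 118 alternative values for the 8 transcripts, 113 kept their direction and their side of the threshold. Only *Ddx58* was called to begin with. For the other members this tally means that they stayed uncalled with the same sign, which is no measure of how stable their values were. *Ddx58* was called in each of its 15 alternatives, with log2 fold changes from 0.64 to 0.77 and adjusted p from 4.25e-08 to 0.0462, the highest without *Adar1* E861A replicate 3. With the replicate block it gave 0.70 and 0.00347. The block called no other member (*Eif2ak2* adjusted p 0.107, *Trim25* 0.0948) and, for the pathway genes, gave 5 calls rather than 4, adding *Nfkbia*, which was also called with no filter and without *Adar1* E861A replicate 2. Without a count filter 2 members were called, since *Eif2ak2* passed (log2 fold change 0.35, adjusted p 0.0191). Over the omissions of single libraries the log2 fold change of *Mavs* ran from -0.14 to 0.044 and that of *Tlr7* from -0.040 to 0.18, and both changed sign. The cause was not tested. *Eif2ak2* ran from 0.28 to 0.45 and *Trim25* from 0.30 to 0.39. *Dhx58* and *Ifih1* were called under none of the 14 alternatives, and their depth of 36 to 60 counts per library limits what could be detected. Over all genes, 69 calls became 376 with no filter, 158 with the block, 139 by the likelihood ratio test and 110 with filterByExpr, and 42 to 113 when single libraries were omitted (42 without *Adar1* E861A replicate 3, 113 without *Adar1* E861A replicate 2, 108 without *Adar1* WT replicate 2). The pathway calls numbered 3 to 6.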
